A study of Mus musculus with 19 samples.

Results

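The 9 genes described here encode enzymes of the urea cycle, the activator and the ornithine carrier on which it depends, and enzymes that bring nitrogen to it. They were chosen by symbol (Cps1, Otc, Ass1, Asl, Nags, Slc25a15, Gls2, Glud1 and Got1). All 9 were found among the 24054 gene symbols of the deposited liver RNA-seq table, and all 9 were among the 11580 genes tested. The RNA came from livers of chow-fed Raly flox/flox mice on a C57BL/6 background, with no age given in the sources used here. The study's mice were male unless it specified otherwise. It names fasting mice beside its liver qPCR and does not state whether the mice of the RNA-seq had fasted. L-RalyKO mice had received AAV8.TBG.Cre and controls AAV8.TBG.GFP, 4 weeks before the liver was taken, with 3 mice per group in the deposited table. Both groups thus carry the floxed Raly alleles and an adeno-associated virus, and the labels call the controls wild type. For its liver RNA-seq the study's figure legend gives 4 mice per group. The TBG promoter restricts Cre to hepatocytes, so that the other cells of these livers keep Raly, and the libraries are of whole liver. The ATAC-seq and ChIP-seq samples were not used here.

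The urea cycle turns ammonia, which is toxic to the brain, into urea for excretion, and the liver is the organ that runs the whole cycle. Its first steps take place in the mitochondria of hepatocytes, where carbamoyl phosphate is made and joined to ornithine, and the later steps in the cytosol, where aspartate brings in further nitrogen. Hepatocytes near the portal vein run this pathway, and a narrow ring of cells around the central vein captures what ammonia is left as glutamine. Raly encodes an RNA-binding protein of the hnRNP family, and the comparison asked how liver gene expression differs when hepatocytes lose it.

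A value here is the authors' normalized signal, the reads of a gene scaled to the effective size of its library and not divided by gene length. From 28302983 to 38052705 reads per mouse were counted on genes, and 3 reads correspond to a value of at most 0.105, while the lowest value of any of the 9 genes in any mouse was 48.6 (Nags). Raly itself (chr2:154616832-154692997 of NCBIM37), which shares exon bases with the gene a on the same strand, was measured at 6.34, 6.61 and 7.39 in L-RalyKO mice 1 to 3 and at 50.1, 48.6 and 46.8 in controls 1 to 3 (log2 fold change −2.67, adjusted p = 6.92e-07, limma). Groups were compared with limma, and a gene is said to have risen or fallen where its p, adjusted over all 11580 genes by the Benjamini-Hochberg method, was under 0.05. By this rule 6.55% of all tested genes changed, 3.36% upward and 3.19% downward. An exact permutation test of 3 mice against 3 cannot give a p under 0.1. The hepatocyte markers measured (5 of a list of 6, led by Alb) summed to between 86318 and 87460 in L-RalyKO and between 78066 and 87184 in control liver. Summed markers of Kupffer cells (7 genes) lay between 137 and 176 against 131 and 195, and those of sinusoidal endothelium (6 genes) between 164 and 204 against 183 and 193. Lymphocyte markers (5 of 6 in the table) summed to at most 9.61 in any mouse. Of 4 pancreas genes, Prss1, Cpa1 and Pnlip had no read in any mouse. Cela2a had 11, 6 and 2 reads in L-RalyKO and 2, 2 and 1 in control mice. Stellate cell markers (6 genes) summed to between 208 and 274 against 216 and 242, and cholangiocyte markers (5 genes) to between 32.2 and 41.0 against 32.5 and 34.7. No gene of the cell type lists passed the test. At an unadjusted p under 0.05, Apoa1 of the hepatocyte list, Sox9 of the cholangiocyte list (adjusted p = 0.0774, limma) and Col3a1 of the stellate list were higher in L-RalyKO liver and none was lower, and their part in the members' values was not tested. In bulk liver, fewer cells of a type and less RNA per cell cannot be told apart.

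None of the 9 genes passed the limma test. Their values were nevertheless mostly higher in L-RalyKO liver, by 1.58-fold for Got1, 1.25-fold for Cps1, 1.18-fold for both Ass1 and Gls2, 1.15-fold for Asl and less for the others. The log2 fold change was above 0 for 9 of 9 members, against 51.2% of all genes tested. The median log2 fold change was 0.20 over the members and 0.0044 over all genes tested. An unadjusted p under 0.05 was found for 5 of the 9 (Cps1, Ass1, Asl, Gls2 and Got1), all higher, where 22.7% of all tested genes passed that level and 11.8% did so by being higher. The values of 5 of the 9 (Cps1, Otc, Asl, Slc25a15 and Got1) were higher in every L-RalyKO mouse than in every control, which held for 14.4% of all tested genes, while the reverse held for 13.7% and either for 28.1%. With whole reads recovered from the values, edgeR's quasi-likelihood test also put 0 members past the adjusted threshold, and DESeq2, which called 1084 of all genes against 758 with limma, put 2 (Cps1 and Asl). The members' summed value averaged 10613 ± 619 over the 3 L-RalyKO mice and 8898 ± 746 over the 3 controls (SD), and together they took between 0.856% and 1.12% of the reads of a mouse.

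**Figure D1:**
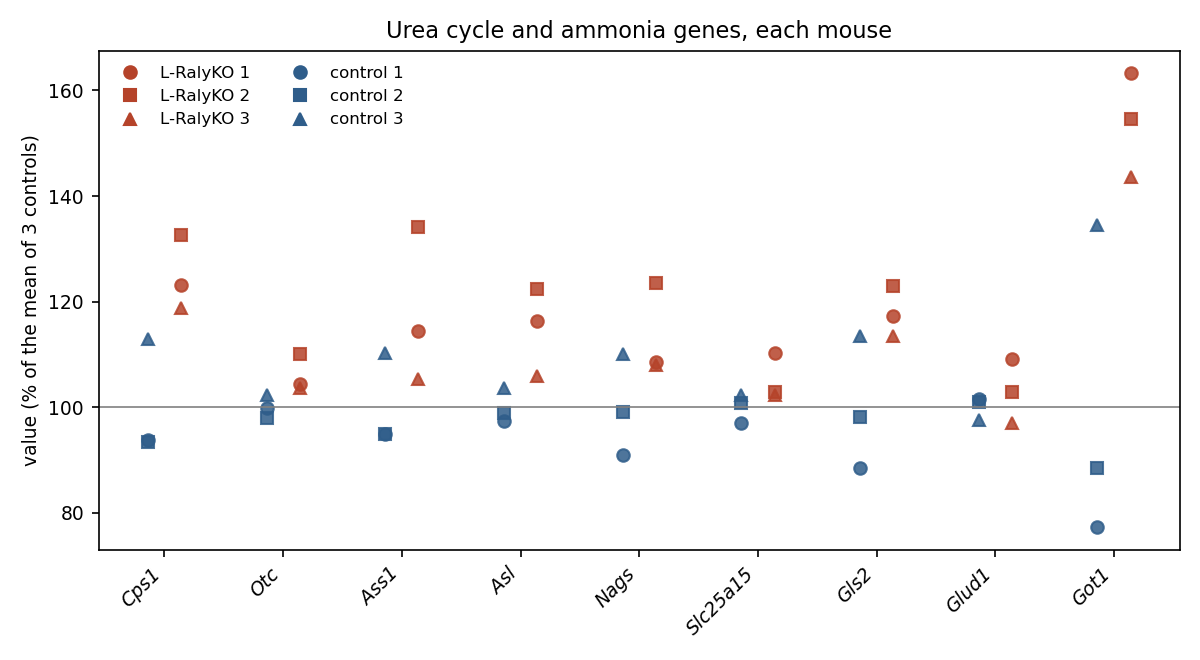
Values of the 9 genes in each mouse, in percent of the mean of the 3 controls (vertical axis), by gene (horizontal axis), with red symbols for L-RalyKO and blue symbols for control mice and the symbol's shape for the mouse number. Control 3 (blue triangles) is the highest control for 8 of the 9 genes, and L-RalyKO 3 (red triangles) is the lowest L-RalyKO mouse for all 9.

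The places of control 3 and L-RalyKO 3 within their groups recurred from one member to the next. Control 3 had the highest value of the controls for 8 of the 9 members, where it was the highest control for 35.6% of all tested genes. The exception was Glud1, for which control 3 was the lowest. L-RalyKO 3 had the lowest value of its group for 9 of 9 members, against 37.9% of all tested genes. In percent of the control mean, the median over the members was 94.8 for control 1, 98.1 for control 2 and 110.1 for control 3, and it was 114, 123 and 106 for L-RalyKO 1, 2 and 3. By this median L-RalyKO 3 lay below control 3. Raly was at 46.8 in control 3, beside 50.1 in control 1 and 48.6 in control 2.

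Leaving out control 3 changed the result. Without it 3 members passed the test, all higher in L-RalyKO liver. These were Got1 (log2 fold change 0.89, adjusted p = 0.00134, limma), Gls2 (0.34, adjusted p = 0.0225) and Cps1 (0.41, adjusted p = 0.0308). Over all genes that fit called 813, against 758 with all 6 mice. Without any other single mouse none of the 9 passed, and their adjusted p lay between 0.0585 (Asl without L-RalyKO 3) and 0.991 (Glud1 without L-RalyKO 1). The fits with 5 mice compare 2 mice with 3.

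**Figure D2:**
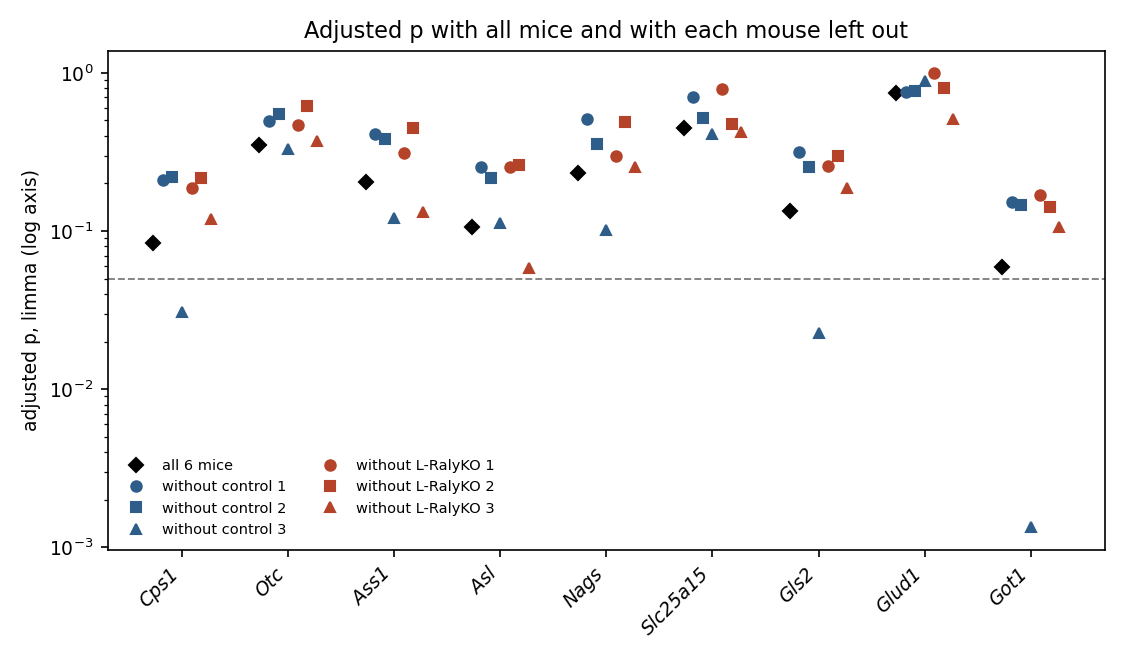
Adjusted p from limma (vertical log axis) for each gene (horizontal axis) with all 6 mice (black diamonds) and with each mouse left out (blue, a control; red, an L-RalyKO mouse). The dashed line marks 0.05, and the blue triangles of Cps1, Gls2 and Got1, the fit without control 3, are the only points of a member below it.

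Cps1 (ENSMUSG00000025991.8, chr1:67169600-67277833 of NCBIM37, + strand) encodes carbamoyl-phosphate synthetase 1, the mitochondrial enzyme that fixes free ammonia and commits it to the cycle. Its values were 5485, 5901 and 5292 in L-RalyKO mice 1 to 3 and 4176, 4155 and 5026 in controls 1 to 3. The groups did not overlap, and control 3 lay closer to the L-RalyKO mean than to the mean of the other controls. The group values were 5559 ± 311 and 4452 ± 497 (SD, n = 3 mice each), a log2 fold change of 0.32 (standard error 0.096, 95% interval 0.11 to 0.54) with an adjusted p of 0.0845 from limma. DESeq2 gave an adjusted p of 0.00316 and edgeR one of 0.0537, and over all alternatives it lay between 0.00316 and 0.245.

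Otc (ENSMUSG00000031173.7, chrX:9829431-9898150) encodes ornithine transcarbamylase, which joins carbamoyl phosphate to ornithine to make citrulline in the mitochondrion. It measured 474, 499 and 470.3 in L-RalyKO and 453, 445 and 464 in control mice. The groups did not overlap, yet the lowest L-RalyKO mouse exceeded the highest control by a value of only 6.30. L-RalyKO liver exceeded control liver by 0.08 on the log2 scale (95% interval −0.03 to 0.19, adjusted p = 0.352, limma), an interval that ends at 1.14-fold.

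The cytosolic enzymes Ass1 and Asl make argininosuccinate from citrulline and aspartate and split it into arginine and fumarate. Ass1 (ENSMUSG00000076441.4, chr2:31325727-31376192) had values of 1463, 1713 and 1347 in L-RalyKO and of 1212, 1212 and 1409.8 in control mice, so that L-RalyKO 3 lay below control 3. Its log2 fold change was 0.23 (95% interval 0.01 to 0.46, adjusted p = 0.205, limma). Asl (ENSMUSG00000025533.9, chr5:130487128-130501002) had values of 655, 689.8 and 596 in L-RalyKO and of 549, 557 and 584 in control mice, without overlap. Its log2 fold change was 0.20 (95% interval 0.05 to 0.34, adjusted p = 0.106, limma). Asl passed the test with DESeq2, at an adjusted p of 0.0499, and over all alternatives that p lay between 0.0499 and 0.262.

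Nags and Slc25a15 serve the mitochondrial part of the cycle. Nags (ENSMUSG00000048217.5, chr11:102006827-102010791) makes N-acetylglutamate, the obligatory activator of carbamoyl-phosphate synthetase 1. It had values of 58.1, 66.1 and 57.8 in L-RalyKO and of 48.6, 53.1 and 58.9 in control mice, and control 3 was above both L-RalyKO 1 and L-RalyKO 3. The ratio of the groups was 1.13 (95% interval 0.997 to 1.29, adjusted p = 0.232, limma), and Gm11586 shares exon bases with Nags on the other strand. Slc25a15 (ENSMUSG00000031482.8, chr8:23486026-23509093) encodes the carrier that brings ornithine into the mitochondrion. Its values were 358, 334 and 332.1 in L-RalyKO and 315, 327 and 331.9 in control mice, so that the groups were parted by a value of only 0.132. Its log2 fold change was 0.07 (95% interval −0.04 to 0.19, adjusted p = 0.445, limma).

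Of the enzymes that bring nitrogen to the cycle, Got1 differed most and Glud1 least. Got1 (ENSMUSG00000025190.7, chr19:43574242-43599095, − strand) encodes the cytosolic aspartate aminotransferase, which moves nitrogen between glutamate and aspartate. Its values were 451, 427 and 397 in L-RalyKO and 213, 244 and 372 in control mice. The L-RalyKO mice lay close together (highest over lowest, 1.14-fold), while the controls spanned 1.74-fold, the widest spread of any member in either group, with control 3 near the L-RalyKO mice. Group values were 425 ± 27.2 and 276 ± 83.8 (SD, n = 3 mice each). On the log2 scale the difference of 0.66 (standard error 0.17, 95% interval 0.26 to 1.05) had an adjusted p of 0.0594 in limma and of 0.202 in edgeR's quasi-likelihood test. Without control 3 it was 0.89, and over all alternatives the adjusted p lay between 0.00134 and 0.202.

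Gls2 (ENSMUSG00000044005.7, chr10:127631513-127647060) encodes the liver glutaminase, which releases ammonia from glutamine in the mitochondria of periportal hepatocytes. It had values of 398, 417 and 384.6 in L-RalyKO and of 300.1, 333 and 384.9 in control mice. The groups met at a single point, where L-RalyKO 3 lay just below control 3. Its log2 fold change was 0.24 (95% interval 0.05 to 0.44, adjusted p = 0.133, limma, and between 0.0225 and 0.315 over all alternatives). Spryd4 shares exon bases with Gls2 on the other strand, and the sources used here do not state whether the counting used strand. Glud1 (ENSMUSG00000021794.9, chr14:35123913-35158330), the mitochondrial glutamate dehydrogenase that frees ammonia from glutamate, had values of 1263, 1189 and 1122 in L-RalyKO and of 1175, 1168 and 1128 in control mice. L-RalyKO 3 was the lowest of all 6 mice. Its log2 fold change was 0.04 (95% interval −0.10 to 0.18, adjusted p = 0.745, limma).

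**Figure D3:**
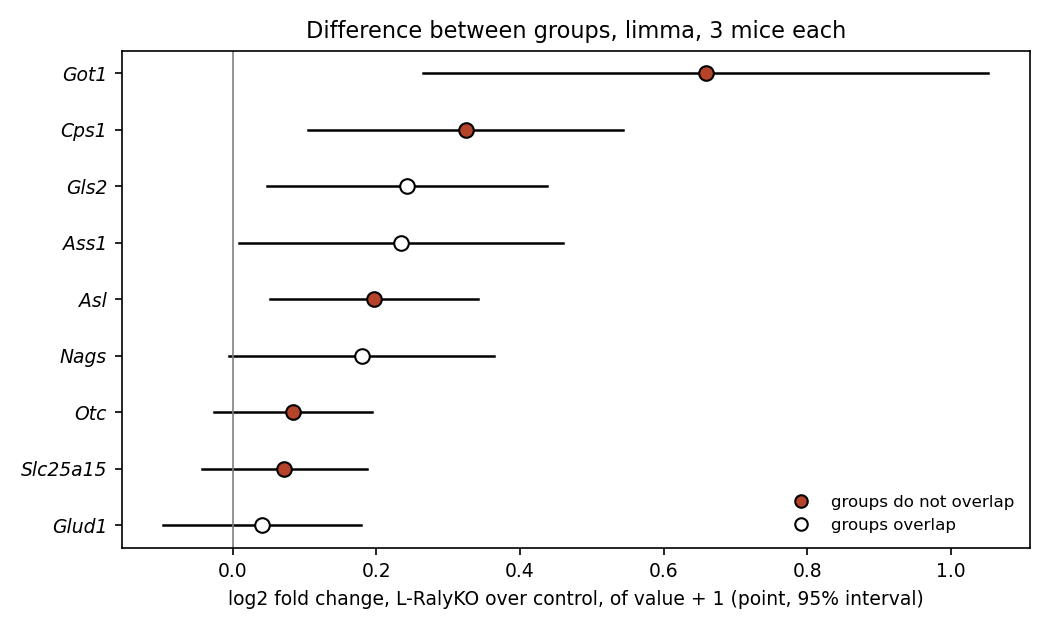
Log2 fold change of L-RalyKO over control liver (horizontal axis, of value + 1) for each of the 9 genes (vertical axis), with points for the limma estimate and lines for its 95% interval, 3 mice per group. Filled points mark genes whose groups do not overlap. The estimate runs from 0.04 for Glud1 to 0.66 for Got1, and the intervals of Cps1, Ass1, Asl, Gls2 and Got1 lie above 0 before adjustment for the 11580 genes tested.

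The sequence before the start of a gene was examined for the CCAAT box, the motif bound by NFY, a promoter factor that the study also examined. RefSeq windows of GRCm38.p6 that end at the base before the start were used, 250 bases long and read 5′ to 3′ on the gene's own strand. They were given for 6 members (Otc, Ass1, Nags, Slc25a15, Glud1 and Got1), with a pair of windows for Slc25a15. CCAAT or its reverse complement ATTGG was found in the window of Got1 alone, 5 times, starting at 168, 152, 107, 64 and 12 bases before the start. Of 32851 such windows of all genes 33.8% hold the motif at least once, and 70 of them (0.213%) hold it 5 times or more. The GC box GGGCGG or its reverse CCGCCC was found in the windows of Ass1, Nags, Slc25a15 and Glud1 and in 32.7% of all windows. A match of letters is a description and not a binding site, and no binding data were used here. The window of Got1, the member with the greatest difference between groups, is shown beside those of Ass1 and of Otc, with CCAAT on either strand in capitals. The coordinates are those of GRCm38.p6, chr19:43524606-43524855 (− strand), chr2:31470020-31470269 (+ strand) and chrX:10252055-10252304 (+ strand).
Got1: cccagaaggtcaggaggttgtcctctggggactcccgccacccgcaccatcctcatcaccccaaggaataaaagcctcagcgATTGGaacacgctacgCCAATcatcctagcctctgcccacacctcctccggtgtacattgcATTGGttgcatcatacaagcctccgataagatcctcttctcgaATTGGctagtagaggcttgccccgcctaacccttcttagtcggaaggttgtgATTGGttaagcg
Ass1: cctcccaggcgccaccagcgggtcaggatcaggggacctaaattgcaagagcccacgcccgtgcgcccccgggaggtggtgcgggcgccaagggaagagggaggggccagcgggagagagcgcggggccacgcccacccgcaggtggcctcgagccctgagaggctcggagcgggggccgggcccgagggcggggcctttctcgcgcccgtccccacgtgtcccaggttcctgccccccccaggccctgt
Otc: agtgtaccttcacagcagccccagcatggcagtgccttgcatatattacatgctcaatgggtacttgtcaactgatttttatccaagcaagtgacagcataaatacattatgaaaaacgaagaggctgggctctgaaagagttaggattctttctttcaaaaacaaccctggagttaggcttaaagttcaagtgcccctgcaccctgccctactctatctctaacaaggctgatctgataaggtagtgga

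Divided by the length of the annotated exons, the level of a gene can be set roughly beside that of another. That length joins the exons of all annotated transcripts, of which there are 1 for Cps1, 9 for Asl and 11 for Gls2. Exons that liver does not use would lower a gene's level, and the transcripts used in these livers were not examined. In control liver Cps1 had the highest level (801 ± 89.4 per kb of exon), followed by Ass1 (554 ± 49.6) and Glud1 (283 ± 6.15) (SD, n = 3 mice each). The steps from Cps1 to Ass1 and from Ass1 to Glud1 were wider than the spread between mice. Asl (123 ± 4.01 per kb), Got1 (109 ± 33.0), Otc (107 ± 2.29), Gls2 (97.6 ± 12.3) and Slc25a15 (94.1 ± 2.52) formed a group in which each overlapped the next. Nags stood apart at 18.9 ± 1.82 per kb. In L-RalyKO liver the upper genes kept this order, with Cps1 at 1001 ± 56.0 per kb, Ass1 at 653 ± 81.1 and Glud1 at 291 ± 17.2. Got1 (167 ± 10.7 per kb) stood above Asl (142 ± 10.3), Gls2 (115 ± 4.68) and Otc (113 ± 3.72) without overlap with any of these, where in control liver its range had overlapped those of Asl, Otc, Gls2 and Slc25a15. These orders were not tested.

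**Figure D4:**
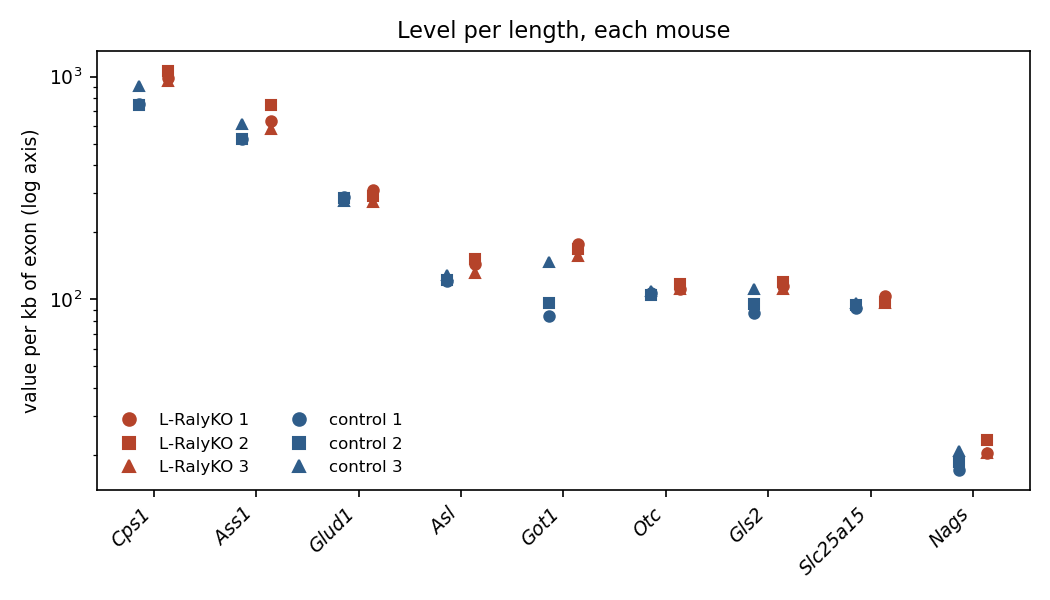
Level of each gene per kb of annotated exon (vertical log axis) in each mouse, ordered along the horizontal axis by the control mean, with red symbols for L-RalyKO and blue symbols for control mice. Cps1 and Ass1 lie highest, Nags lies lowest at 18.9 in controls, and only in Got1 do the controls spread over 1.5 times or more.

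The other genes of nitrogen handling gave a more mixed picture. A list of 47 genes around the cycle (mitochondrial carriers, branches of ornithine and arginine use, glutamine synthesis, aminotransferases and deaminating enzymes, transporters and regulators) had 41 tested members. Of these 5 rose and 2 fell in L-RalyKO liver, beside 3.36% and 3.19% of all tested genes. At an unadjusted p under 0.05, 12 were higher and 2 lower, beside 11.8% and 10.9% of all tested genes. The median log2 fold change was 0.03, near that of all genes tested.

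The genes that rose included a pair of transporters. Slc7a2, a plasma membrane transporter for arginine, ornithine and lysine, measured 1005, 1002 and 1124 in L-RalyKO and 644, 691 and 890.4 in control mice, or 0.50 higher on the log2 scale (adjusted p = 0.0370, limma). Control 3 was again the highest control. Slc25a13, the mitochondrial carrier that exports aspartate for Ass1, had values of 337, 329 and 328 against 292, 298 and 289.9. Its difference was small but even, at 0.18 on the log2 scale (adjusted p = 0.0474, limma). Both calls lay near the threshold. That of Slc25a13 was lost in each of the 6 fits that left out a mouse (adjusted p from 0.0867 to 0.164), while the log2 fold change stayed between 0.16 and 0.19. With all mice it was also lost with upper-quartile scaling, total count scaling, no filter on low values and no intensity trend (adjusted p from 0.0548 to 0.104). The call of Slc7a2 was lost without any mouse except control 3 (adjusted p from 0.0809 to 0.105 in those 5 fits), and with all mice with edgeR (0.0554), no filter (0.0789) and no trend (0.0678).

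Among 10 regulators of urea cycle genes, Hnf4a and Foxa2 rose and none fell, beside 3.36% and 3.19% of all tested genes. Hnf4a encodes a nuclear receptor that defines the hepatocyte and drives many genes of amino acid metabolism. It had values of 899.6, 809 and 829 in L-RalyKO and of 520.3, 542 and 680.5 in control mice, without overlap and with control 3 the highest control (log2 fold change 0.55, adjusted p = 0.0155, limma). Foxa2, a forkhead factor of liver and gut endoderm, had values of 33.0, 28.9 and 21.3 against 13.3, 13.9 and 16.7 (log2 fold change 0.86, adjusted p = 0.0126, limma). The adjusted p of Hnf4a was 0.0509 without control 1, 0.0510 without control 2 and 0.0617 without L-RalyKO 1, and that of Foxa2 was 0.0501 without control 1. Cebpa, which encodes a factor needed for full expression of urea cycle enzymes, was 0.19 higher on the log2 scale (adjusted p = 0.231, limma).

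The remaining 3 genes past the threshold belong to the list of aminotransferases and deaminating enzymes. Of its 11 tested genes 1 rose and 2 fell, beside 3.36% and 3.19% of all tested genes. Aspg, an asparaginase that frees ammonia from asparagine, fell to values of 161, 175 and 156 from 218, 209 and 186 in controls (log2 fold change −0.32, adjusted p = 0.0354, limma). Amt, the aminomethyltransferase of the glycine cleavage system, fell to 21.6, 21.8 and 19.3 from 25.9, 24.9 and 24.8 (−0.26, adjusted p = 0.0484). Asns, which makes asparagine, rose from a low level, with values of 2.04, 1.54 and 1.45 against 0.328, 0.947 and 0.243 (log2 fold change 0.85 of value + 1, adjusted p = 0.0324, limma). At this level the added 1 lowers the fold change, which was 1.71 with a pseudocount of 0.1 and 1.78 with edgeR. The call of Amt was lost in all 6 fits without a mouse (adjusted p from 0.0746 to 0.148), with log2 fold changes between −0.29 and −0.21. That of Aspg was lost in 4 (without control 1, control 2, L-RalyKO 1 or L-RalyKO 3, adjusted p from 0.0933 to 0.114) and that of Asns in 5 (all except the fit without control 2, adjusted p from 0.0626 to 0.112). With all mice, no filter on low values ended the calls of Amt (0.0765), Aspg (0.0639) and Asns (0.0513), and no trend those of Amt (0.0731) and Aspg (0.0736).

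Several genes named whatever their values did not pass the test. Got2, the mitochondrial aspartate aminotransferase, had values of 625, 652 and 602 in L-RalyKO and of 666, 641 and 671 in control mice (log2 fold change −0.07, 95% interval −0.19 to 0.04, adjusted p = 0.439, limma), beside the higher values of cytosolic Got1. Glul, the glutamine synthetase of the cells around the central vein, had values of 980.4, 807 and 903 in L-RalyKO and of 955, 1025 and 975 in control mice (log2 fold change −0.14, 95% interval −0.31 to 0.03, adjusted p = 0.322, limma). Oat (log2 fold change 0.05, adjusted p = 0.819), which turns ornithine toward glutamate, Car5a (−0.04, 0.734), which makes bicarbonate for carbamoyl phosphate, and Sirt5 (−0.0042, 0.984), a deacylase that acts on carbamoyl-phosphate synthetase 1, did not pass the test either.

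**Figure D5:**
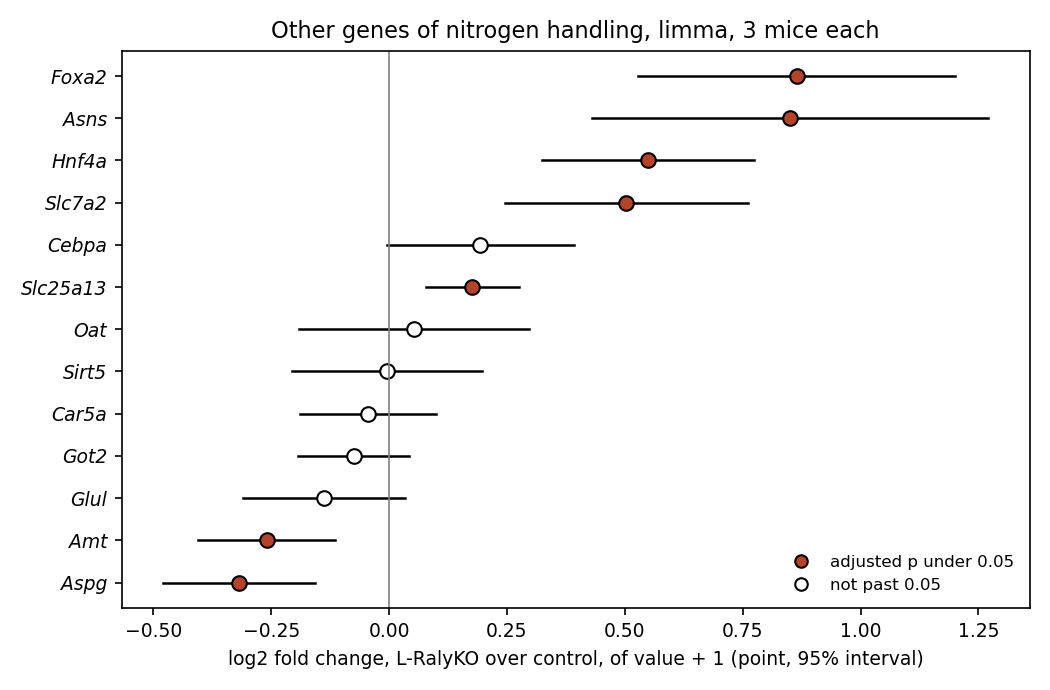
Log2 fold change of L-RalyKO over control liver (horizontal axis, of value + 1) for 13 other genes of nitrogen handling (vertical axis), with points for the limma estimate and lines for its 95% interval, 3 mice per group. Filled points mark genes with an adjusted p under 0.05, which are Foxa2, Asns, Hnf4a, Slc7a2 and Slc25a13 above 0 and Amt and Aspg below it.

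Since the urea cycle belongs to periportal hepatocytes, markers of both ends of the liver lobule were examined. Sds and Hal of the periportal markers and Glul, Oat, Rhbg and Slc1a2 of the pericentral ones were also counted in the surrounding list above. Of 9 periportal markers that are not among the 9 genes, 1 rose and none fell, beside 3.36% and 3.19% of all tested genes. The gene that rose was Pck1, the enzyme of gluconeogenesis that makes phosphoenolpyruvate (log2 fold change 0.78, adjusted p = 0.00312, limma). At an unadjusted p under 0.05 (limma), 4 of these markers were higher and 1 (Ctsc, log2 fold change −0.39) was lower, beside 11.8% and 10.9% of all tested genes. The 9 markers summed to between 7838 and 8248 in L-RalyKO and between 5133 and 6303 in control liver, and Pck1 made up most of that sum. Of 11 pericentral markers, Cyp1a2 rose (0.48, adjusted p = 0.0441, limma) and Lgr5 (−0.53, adjusted p = 0.0441) and Tbx3 (−0.62, adjusted p = 0.00429) fell. Of all tested genes 3.36% rose and 3.19% fell. At an unadjusted p under 0.05 (limma), 3 of the 11 were higher and 2 lower, beside 11.8% and 10.9% of all tested genes. The pericentral markers summed to between 12221 and 13357 against 11155 and 12159. Cyp2e1, which did not pass the test (adjusted p = 0.446, limma), made up most of that sum, at 9605 against 8809 on average. The call of Cyp1a2 was lost without control 1, control 3, L-RalyKO 1 or L-RalyKO 3 (adjusted p up to 0.141) and that of Lgr5 without any mouse except L-RalyKO 1 (up to 0.123), while those of Pck1 and Tbx3 held in all 6. With all mice, both Cyp1a2 and Lgr5 missed the threshold with no filter (0.0892 and 0.0972) and no trend (0.0791 and 0.0578), and Cyp1a2 also with edgeR (0.0714). The part of zonation in the values of the 9 genes was not tested.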

How the data were processed

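Liver RNA-seq of 3 L-RalyKO and 3 control mice was used. Libraries were stranded, and per the study's methods reads were aligned with TopHat v2.0.2 to mm9 (NCBIM37). The table that the authors deposited holds a scaled signal, gene read counts over the effective library size, whereas the methods describe quantification with Cufflinks v2.0.2 on Ensembl NCBI37 gene models and comparison of FPKM values with Cuffdiff. How the deposited values were counted and scaled is not given in the sources used here. In each column 100% of values were whole multiples of the value of 1 read (within 0.01 reads), from which reads were recovered, and the scaling equalled edgeR's TMM factors. Each column names a virus and a number, by which it was assigned to a mouse.

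Limma 3.58.1 (R 4.3.3) with an intensity trend was run on log2(value + 1) for the 11580 genes whose mean value reached 1, with Benjamini-Hochberg adjustment over all of them. EdgeR 4.0.16 (quasi-likelihood, 783 genes called) and DESeq2 1.42.0 were run on recovered reads. Limma, edgeR, DESeq2, and limma with a replicate block, with upper-quartile scaling or without a trend were first tested on simulated data. The other filters, the other pseudocount and the fits without a mouse were not. Mice of a group differed beyond counting noise, with a chi-square of 14.8 to 101 per degree of freedom. For control 1 it was 84.5 against control 2 and 101 against control 3, while it was 21.4 between controls 2 and 3. Coordinates and exon lengths come from GENCODE vM1 (NCBIM37), and promoter windows from RefSeq (GRCm38.p6).

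The members, and the gene lists, written from general knowledge, were chosen with earlier results of these data known. Named were all members, Raly, genes of the lists with an adjusted p under 0.05 and, whatever their values, 8 genes of the surrounding list (Glul, Oat, Got2, Slc25a13, Car5a, Sirt5, Hnf4a and Cebpa). Alternatives were other tests, scalings, filters and pseudocounts, no trend, a replicate block and leaving out each mouse. Some genes of the design are not reported here.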

Additional observations from a re-analysis of the deposited data

How the results depend on the processing

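The count of members past the threshold was 0 under each of 8 of the 9 settings that kept all mice and 2 with DESeq2, and it lay between 0 and 3 when each mouse was left out in turn, with 3 only without control 3. No member fell under any setting. Of the surrounding list, 5 genes higher became 8 with DESeq2, 2 with no filter on low values and 3 without an intensity trend, and lay between 0 and 4 without single mice. The 2 lower became 0 with no filter and without a trend, and lay between 0 and 1 without single mice. All genes called, 758, became 1084 with DESeq2, 536 without a trend and 484 with no filter and lay between 332 and 813 without single mice. The cause of these changes was not tested.

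The labels number the mice from 1 to 3 in both groups. Same-numbered mice are different animals. Their deviations from the group means correlated at 0.07, −0.02 and 0.02 over the tested genes, beside −0.088 to 0.060 for mice of unlike number. Such correlations cannot tell whether same-numbered mice also shared a litter or a batch, which the sources used here do not state. With the replicate block 704 genes were called, 0 members and 1 lower gene of the surrounding list, and the adjusted p was 0.0743 for Slc25a13, 0.0630 for Amt, 0.0843 for Cyp1a2 and 0.0613 for Lgr5.

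Without single mice the log2 fold change lay between 0.14 and 0.31 for Ass1, 0.11 and 0.25 for Nags, and 0.037 and 0.091 for Slc25a15. It lay between 0.16 and 0.34 for Gls2 and between −0.21 and −0.065 for Glul. The log2 fold change of Glud1 lay between −0.0022 and 0.083 without single mice, below 0 without L-RalyKO 1. Of genes that passed no test, the sign also turned without single mice for Oat (from −0.051 to 0.17), Sirt5 (from −0.073 to 0.065) and Car5a (from −0.088 to 0.0041). Total count scaling moved the median log2 fold change of all genes tested from 0.0044 to −0.027. With it the log2 fold change was 0.0063 for Glud1, 0.038 for Slc25a15 and 0.049 for Otc. In the main fit these were 0.041, 0.072 and 0.083. The members' values rest on 3 mice per group, and the effect of that number on the calls was not tested.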
